A study of Homo sapiens with 6 samples.

Results

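The interleukin genes described here are the protein-coding genes of the deposited table whose name begins with IL followed by a number, 18 of its 2885 genes. They comprised 7 cytokines (IL32, IL15, IL7, IL23A, IL1A, IL33, IL36G), 2 secreted antagonists (IL1RN, IL36RN), 8 receptor chains (IL6ST, IL15RA, IL7R, IL21R, IL18R1, IL1R1, IL1RAP, IL1RAPL1) and IL4I1, which carries an interleukin name but encodes an enzyme. Of the 85 protein-coding genes with such a name in GENCODE 29, the others were not in the table and were not analysed here. RNA was sequenced from RKO, an established line of human colon carcinoma cells. The 3 shNC libraries came from cells whose genotype is given as wild type and which carried a control short hairpin RNA, and the 3 shKMT5A libraries from cells labelled as a knockdown of KMT5A, the histone H4 lysine 20 methyltransferase, with a hairpin against that gene. Both groups thus carried a hairpin, and the labels give no time, vector, clone or number of hairpins and do not say whether libraries came from separate cultures. The p-values thus reflect just the scatter of these 6 libraries, part or all of which may be technical.

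Interleukins are secreted proteins through which epithelial cells and leukocytes signal to each other. They fall into families by the receptor chains they use. Members of the IL-1 family bind a specific chain that then recruits an accessory chain, in most cases IL1RAP, and signal through MYD88 and IRAK kinases to NF-kB. The family includes natural antagonists that occupy the receptor without signalling. Cytokines such as IL-7, IL-15 and IL-21 signal through private chains together with the common gamma chain, IL2RG, and those of the IL-6 family through gp130, both by way of JAK kinases and STAT factors. Epithelial tumour cells are known to make some of these cytokines and to carry some of the receptors.

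The table bounds what can be read from the values. It holds genes that the authors had selected: the largest adjusted p in it was 0.0499 and the smallest absolute log2 fold change was 1. Its genes held between 1363382 and 1369655 reads per shNC library and between 1891460 and 1980866 per library labelled shKMT5A, and the full depth is unknown. KMT5A itself went against the label, with 1298, 1245 and 1307 normalized counts under shNC and 4015, 3898 and 3297 in the libraries labelled shKMT5A (log2 fold change 1.54, limma, adjusted p = 1.00e-08, and p = 0.1 in an exact two-sided permutation test, the smallest that 3 against 3 libraries allow). Directions below are therefore those of the libraries labelled shKMT5A against shNC, and none can be read as an effect of less KMT5A transcript. Of 15 leukocyte markers 4 were in the table (CORO1A, GZMB, CD79A, CD8A). Their summed normalized counts ran from 489 to 548 in the shNC libraries and from 114 to 139 in those labelled shKMT5A, a sum carried by CORO1A (490 ± 27.3 and 105 ± 12.9); GZMB and CD79A were lower as well, CD8A was higher (0.638 ± 0.553 and 13.2 ± 3.53), and none was at 0 in all libraries. The table held 5 of 10 colon epithelial markers, led by KRT8, KRT18 and KRT19, with sums of 144310 to 157141 and of 45692 to 47212. These 3 keratins were lower, while CDH17 and MUC2, with means of 4.10 and 10.9 in the libraries labelled shKMT5A, were higher. It also held 6 of 10 markers of fibroblasts and endothelium, with sums of 172 to 181 and of 95.3 to 121, of which LUM, DCN and TEK were lower and ACTA2, COL3A1 and CDH5 were higher. The part of these shifts in the values below was not tested.

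Of the 18 interleukin genes 16 were higher and 2 were lower in the libraries labelled shKMT5A (limma on log2(normalized count + 1), adjusted p under 0.05 over the whole table). In the table as a whole 57.4% of genes were higher and 42.6% were lower by the same rule, 99.9% in either direction. Asking as well for a log2 fold change of at least 1 in size left the members' counts at 16 and 2, beside 56.5% and 42.2% of the table. Both cuts nearly repeat the authors' own selection on these same libraries, so that passing them is largely built in. The 2 groups of libraries did not overlap for any of the 18 genes, as for 99.7% of the table, which follows largely from the authors' selection. The median log2 fold change was 2.33 over the 18 genes and 1.13 over all 2885, where higher and lower genes offset each other. In absolute size the medians were 2.33 and 1.75. The 2 that were lower, IL1R1 and IL1RAP, encode the receptor of interleukin 1 and its accessory chain. All 18 had a mean of at least 1 normalized count, the filter used, as did every gene of the table. By the rule that 6 values summing to under 100 normalized counts, or at most 3 reads in a group, mean few counts, 5 members rest on few counts: IL1A, IL33, IL36G, IL36RN and IL21R. The other 13 had a median log2 fold change of 1.73, with 11 higher and 2 lower. Their median in absolute size, also 1.73, was close to the 1.75 of the table.

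**Figure D1:**
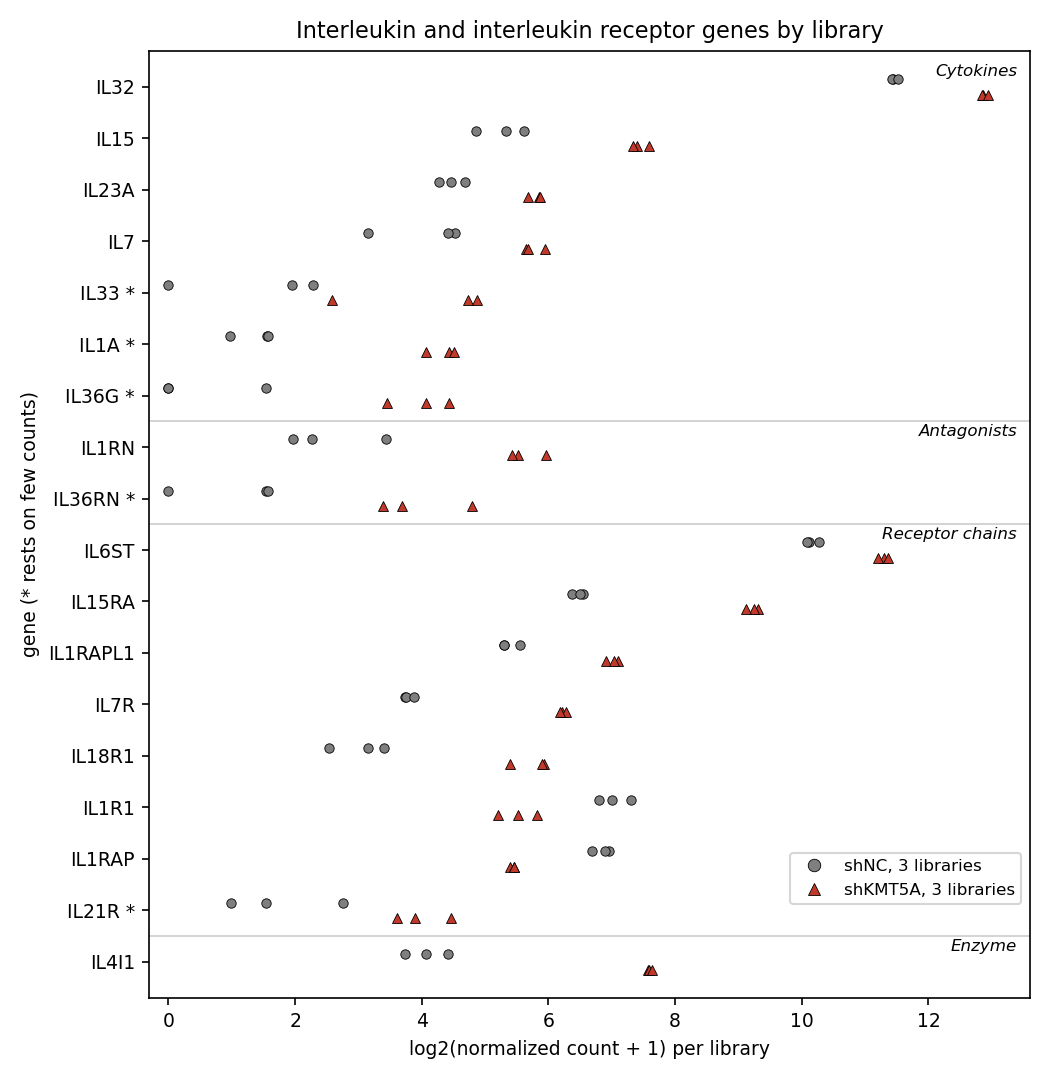
Normalized counts of the 18 interleukin genes on a log2(value + 1) axis, with 1 circle per shNC library and 1 triangle per library labelled shKMT5A; a star marks genes that rest on few counts. Triangles lie to the right of circles for 16 genes and to the left for IL1R1 and IL1RAP.

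**Figure D2:**
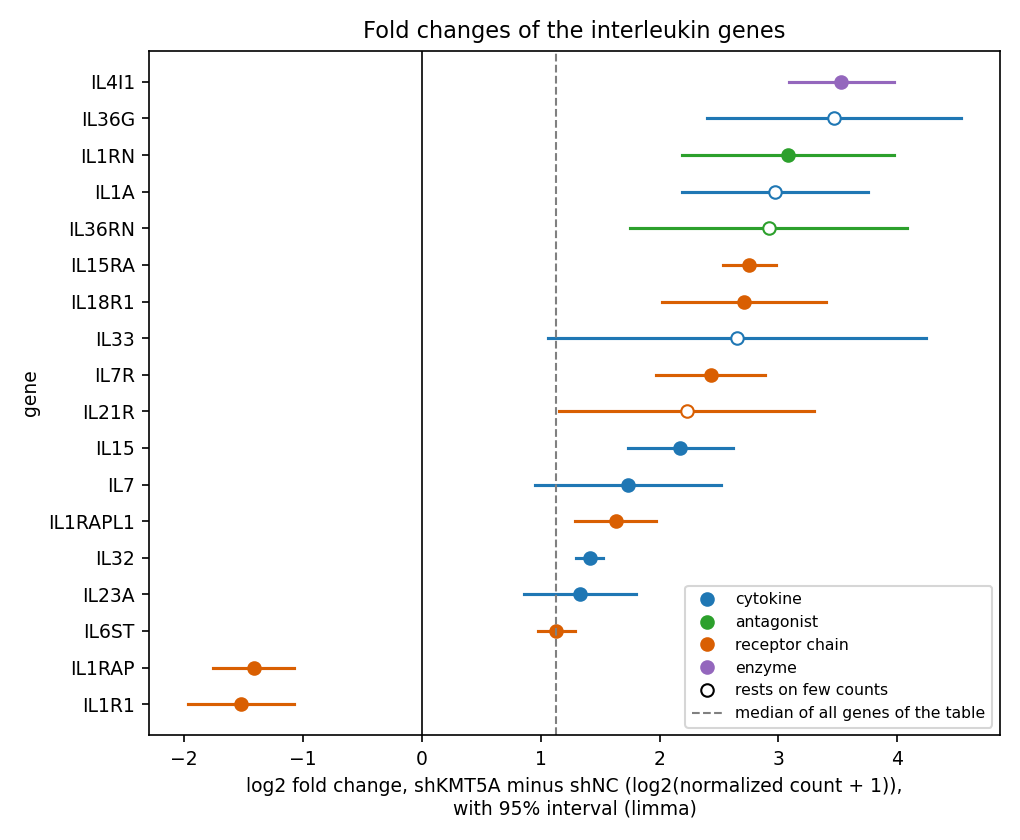
Log2 fold change of each gene, libraries labelled shKMT5A minus shNC, with its 95% interval from limma; open points rest on few counts and the dashed line is the median of the table, 1.13. The 2 lower genes are separated from the 16 higher ones by the line at 0.

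Promoter sequences are shown for IL32 and IL23A, cytokines among those with the highest counts, and for the receptor genes IL15RA and IL18R1. The receptor genes were chosen after their matches were seen. All of these genes hold matches to binding motifs of factors that act in cytokine signalling, and a link to their values was not tested. Windows of 300 bases (250 before to 50 after an annotated start, RefSeq, GRCh38.p14) were at hand for 16 of the 18 members, 29 windows in all; IL15 and IL7 had none. In the sequences, written 5′ to 3′ along the gene, capitals mark matches to the NF-kB consensus, to the AP-1 consensus TGANTCA or to the ISRE core GAAANNGAAA, searched on both strands.
IL32 (chr16:3065153-3065452, plus strand): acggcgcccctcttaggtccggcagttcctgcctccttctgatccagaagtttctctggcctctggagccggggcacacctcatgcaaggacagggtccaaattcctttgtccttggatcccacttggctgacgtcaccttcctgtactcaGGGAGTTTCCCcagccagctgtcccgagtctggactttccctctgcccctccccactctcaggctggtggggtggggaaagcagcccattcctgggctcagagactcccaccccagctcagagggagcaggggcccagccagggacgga
IL23A (chr12:56338634-56338933, plus strand): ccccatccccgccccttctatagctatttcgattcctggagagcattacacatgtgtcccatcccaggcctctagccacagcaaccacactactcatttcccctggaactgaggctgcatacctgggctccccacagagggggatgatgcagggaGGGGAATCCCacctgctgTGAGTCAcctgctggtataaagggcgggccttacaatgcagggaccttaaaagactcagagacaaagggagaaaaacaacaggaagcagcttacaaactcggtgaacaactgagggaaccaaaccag
IL15RA (chr10:5977562-5977861, minus strand): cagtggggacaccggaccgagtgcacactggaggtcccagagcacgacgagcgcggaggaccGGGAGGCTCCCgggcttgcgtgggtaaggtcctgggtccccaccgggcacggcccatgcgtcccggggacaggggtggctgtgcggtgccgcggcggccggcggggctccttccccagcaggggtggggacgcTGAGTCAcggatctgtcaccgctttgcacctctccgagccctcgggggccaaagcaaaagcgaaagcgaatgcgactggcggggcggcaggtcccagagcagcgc
IL18R1 (chr2:102356033-102356332, plus strand): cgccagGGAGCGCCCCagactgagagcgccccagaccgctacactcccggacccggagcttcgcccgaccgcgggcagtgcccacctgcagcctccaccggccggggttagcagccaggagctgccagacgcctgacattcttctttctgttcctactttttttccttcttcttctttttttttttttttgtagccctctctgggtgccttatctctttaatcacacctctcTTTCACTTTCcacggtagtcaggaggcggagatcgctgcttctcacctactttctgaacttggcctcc
The run of capitals in IL32 is an NF-kB match from base -99, counted from the annotated start, which overlaps another on the opposite strand from base -98. IL23A holds an NF-kB match from base -95 and an AP-1 match from base -77. The IL15RA window holds an NF-kB match from base -188, overlapping another on the opposite strand, and an AP-1 match from base -55. The IL18R1 window holds an NF-kB match from base -244 and an ISRE match from base -18, both on the opposite strand. It stands at a start inside the gene, whose first annotated base is 102311529. The IL23A and IL15RA windows likewise lie inside their genes, whose first bases are 56334174 and, on the minus strand, 5978187. The IL32 window spans the first base of its gene, 3065297, which lies before the annotated start used. Other windows of IL32 and IL18R1 held none of the 3 motifs, and other windows of IL15RA held no NF-kB match. An NF-kB match stood in 7 of the 16 members' genes and in 13.3% of the 27305 genes with windows, an AP-1 match in 4 and in 9.37%, and an ISRE core in 2 and in 4.38%. A gene counted when any of its windows matched, which favours genes with more windows. By window the shares were 24.1%, 24.1% and 10.3% of the members' 29. Of all 35116 windows they were 11.3%, 7.71% and 3.57%. No matches of different motifs overlapped in the members' windows. Any of the 3 motifs stood in 9 of the 16 members' genes and in 24.8% of all genes with windows. The 7 without a match were IL7R, IL21R, IL33, IL36G and IL4I1, which were higher, and IL1R1 and IL1RAP, which were lower. A match describes the letters only and shows no binding.

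IL32, a pro-inflammatory cytokine made by epithelial and lymphoid cells (ENSG00000008517, chromosome 16, 3065297 to 3082192, plus strand, GRCh38), was the most abundant member by far. The shNC libraries held 2788, 2756 and 2944 normalized counts of it, and the libraries labelled shKMT5A held 7407, 7322 and 7856. These values average 2829 ± 100.5 and 7529 ± 287 (SD, n = 3 each) and differ 2.66-fold, with a log2 fold change of 1.41 ± 0.05 (SE; limma, adjusted p = 8.80e-10). Per kilobase of gene length it stood at 882 and 2346 normalized counts, above every other member in both groups.

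IL15 (chromosome 4, 141636599 to 141733987, plus strand), which sustains natural killer and memory CD8 T cells, rose together with IL15RA (chromosome 10, 5943639 to 5978187, minus strand), the chain that carries it on the surface of the producing cell and presents it to neighbours. For IL15 the shNC libraries gave 39.0, 27.9 and 48.2 normalized counts and the libraries labelled shKMT5A gave 168, 190.4 and 161 (log2 fold change 2.17 ± 0.20, adjusted p = 1.40e-06, limma). IL15RA had 81.9, 92.4 and 89.4 against 634, 607 and 556 (2.75 ± 0.10, adjusted p = 1.14e-09, limma), a 6.82-fold difference in means. All shKMT5A values of both genes lay above all shNC values. Per kilobase, IL15RA stood at 4.02 to 7.16 times IL15 in the shNC libraries and at 6.90 to 8.19 times in those labelled shKMT5A, so that the ranges of this ratio overlapped.

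IL7, a survival factor of lymphocytes, and IL7R, the chain that binds it and also serves TSLP, were higher as well. Normalized counts of IL7 were 21.9, 20.2 and 7.86 under shNC, and 49.2, 50.2 and 60.6 in the libraries labelled shKMT5A. The third shNC library was the lowest, and the log2 fold change was 1.73 with all libraries and 1.30 without it (adjusted p = 6.70e-04 with all libraries, limma). IL7R had 12.4, 12.5 and 13.8 against 73.3, 76.8 and 71.5, with coefficients of variation of 5.91% and 3.61% (2.43 ± 0.21, adjusted p = 7.58e-07, limma). Reads of IL7 are uncertain in part, since 9.5% of its exon bases are shared with ZC2HC1A on the opposite strand and the sources used here do not say whether reads were counted by strand. IL21R, another partner of the common gamma chain, rests on 9 reads in the shNC libraries and 45 in the others: 1.90, 5.78 and 0.983 normalized counts against 20.9, 11.3 and 13.9 (2.23 ± 0.48, adjusted p = 0.00103, limma). Without shNC replicate 2 its ratio of means was 10.6 in place of 5.32, and 23.3% of its exon bases are shared with IL21R-AS1 on the opposite strand. The 5 members of this family were all higher, beside 57.4% of the table, and the median of their log2 fold changes was 2.23.

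IL23A, the p19 subunit that pairs with IL12B to form interleukin 23, reached 20.9, 18.3 and 24.6 normalized counts under shNC, against 56.5, 50.2 and 57.6 in the libraries labelled shKMT5A. The difference was 2.58-fold (log2 fold change 1.33 ± 0.21, adjusted p = 1.21e-04, limma). IL12B is outside the table and was not analysed here.

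IL6ST (chromosome 5, 55935095 to 55994993, minus strand) encodes gp130, the signalling chain shared by the receptors of interleukin 6, interleukin 11, LIF and oncostatin M. Its normalized counts were 1234, 1111 and 1078 under shNC and 2513, 2627 and 2357 in the libraries labelled shKMT5A. The log2 fold change of 1.13 ± 0.07 (adjusted p = 5.36e-08, limma) was the smallest among the higher members, close to the selection limit of the table and near its median of 1.13. A share of 8.6% of its exon bases lies opposite an antisense gene. Per kilobase it was the next most abundant member after IL32 in both groups, at 123 and 269 normalized counts. TMM scaling could be computed only on this table of selected genes, of which 99.9% were called. It lowered the log2 fold changes of all genes by a median of 0.58. The log2 fold change of IL6ST was then 0.53, and those of IL32 and IL23A were 0.81 and 0.75.

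In the IL-1 family ligands and antagonists were higher while the interleukin 1 receptor and its accessory chain were lower. The table held 9 of its members, of which 7 were higher and 2 were lower, beside 57.4% and 42.6% of all its genes. IL1R1, which transmits the signal of interleukin 1, stood at 110.5, 157 and 128 normalized counts under shNC and fell to 55.5, 45.0 and 35.8 in the libraries labelled shKMT5A. Its mean was 2.90-fold lower, and its log2 fold change was -1.52 ± 0.20 (adjusted p = 2.60e-05, limma). IL1RAP had 124, 117 and 102 against 40.8, 43.0 and 42.7 (-1.41 ± 0.15, adjusted p = 5.45e-06, limma), a mean 2.71-fold lower. The highest shKMT5A library lay well below the lowest shNC library for both genes. Their ratio per kilobase, IL1R1 over IL1RAP, ran from 1.46 to 2.18 in the shNC libraries and from 1.37 to 2.22 in the others, ranges that overlap.

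The remaining receptor chains of the family were higher. IL18R1, the chain that binds interleukin 18, rose from 9.52, 4.81 and 7.86 normalized counts under shNC to 59.7, 40.9 and 58.6 in the libraries labelled shKMT5A (log2 fold change 2.71 ± 0.31, adjusted p = 9.17e-06, limma). IL1R1 and IL18R1 lie on the plus strand of chromosome 2, 131.7 kb apart, at 102064544 to 102179874 and 102311529 to 102398775 (GRCh38), and they moved in opposite directions. Per kilobase IL1R1 stood 7.13 to 20.04 times above IL18R1 in the shNC libraries and at 0.375 to 0.676 times its level in those labelled shKMT5A, so that their order was exchanged. IL1RL2 and IL1RL1, which lie in the same stretch, were not in the table and were not analysed here. IL1RAPL1, an X-linked relative of IL1RAP known for its role at neuronal synapses, had 45.7, 38.5 and 38.3 against 136, 119 and 130.2 (1.63 ± 0.15, adjusted p = 1.83e-06, limma). IL18RAP and MYD88, partners of these receptors, were likewise not in the table.

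The ligands of the family were low in the shNC libraries and rest on few reads there. IL1A, an agonist of IL1R1 that cells release on damage, had 5 reads over the shNC libraries and 57 over those labelled shKMT5A. Its normalized counts were 0.952, 1.93 and 1.97 against 15.7, 20.5 and 21.9 (log2 fold change 2.97 ± 0.35, adjusted p = 1.16e-05, limma). IL36G, an epithelial agonist of the interleukin 36 receptor, had 2 reads over the shNC libraries, both in replicate 1, without which none is left, and 45 over the others. Its ratio of 24.2 has a 95% counting interval of 6.21 to 202, and values of 15.7, 20.5 and 9.94 normalized counts in the libraries labelled shKMT5A; the log2 fold change was 3.47 ± 0.48 (adjusted p = 4.09e-05, limma). The authors' deposited table lists 4.58 for IL36G. IL33, a nuclear cytokine released as an alarm signal, had 2.86, 3.85 and 0 normalized counts against 28.3, 25.6 and 4.97. The third library labelled shKMT5A was thus close to the shNC libraries, and the log2 fold change of 2.65 ± 0.72 (adjusted p = 0.00410, limma) was 3.39 without it and 1.95 without shNC replicate 3. The ratio of means of IL33, 8.77, was 13.7 without shNC replicate 2.

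Both antagonists of the family were higher too. IL1RN, the receptor antagonist that competes with interleukin 1, rose from 3.81, 2.89 and 9.83 normalized counts under shNC to 45.0, 61.4 and 41.7 in the libraries labelled shKMT5A (log2 fold change 3.08 ± 0.40, adjusted p = 2.43e-05, limma). The third shNC library was the highest of its group. The ratio of means, 8.97 with all libraries, was 14.8 without that library and 7.24 without shNC replicate 2. IL36RN, which blocks the interleukin 36 receptor, had 1.90, 0 and 1.97 against 9.42, 26.6 and 11.9, with the second library labelled shKMT5A above the other two (2.92 ± 0.52, adjusted p = 2.88e-04, limma). Per kilobase IL1RN stood at 0.979 to 3.26 times IL1A in the shNC libraries, where both rest on few reads, and at 1.25 to 1.96 times in those labelled shKMT5A. IL36RN stood at 0.251 to 0.544 times IL36G in the libraries labelled shKMT5A. The 4 genes IL1A, IL36G, IL36RN and IL1RN lie in 1 stretch of chromosome 2, between 112773915 and 113134016, in which GENCODE 29 places 9 protein-coding genes; the other 5, IL1B among them, were not in the table.

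**Figure D3:**
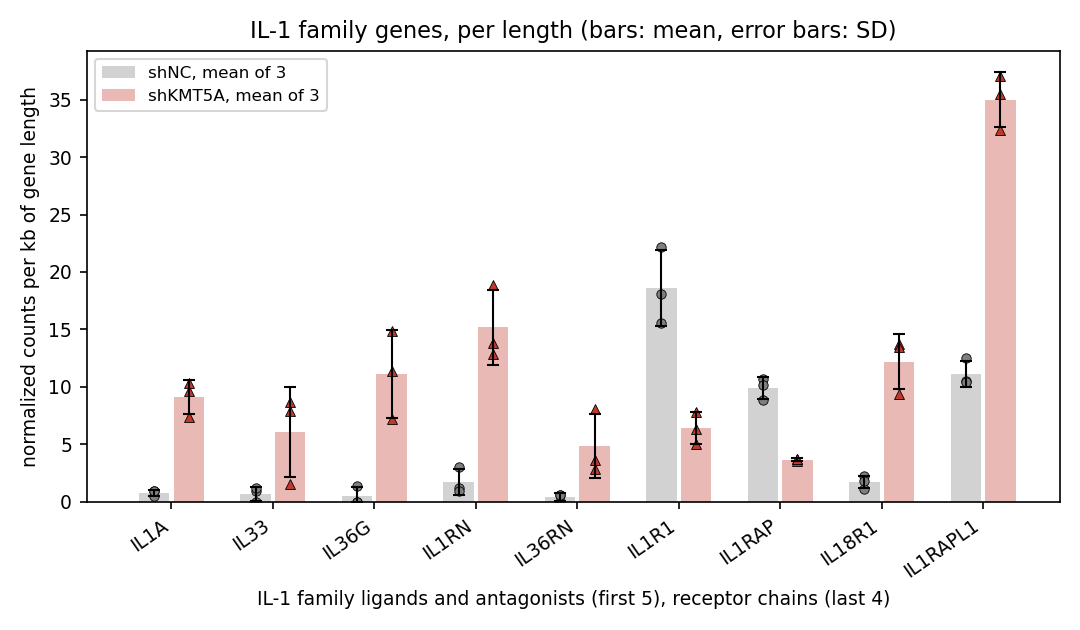
Normalized counts per kilobase of gene length for the 9 IL-1 family genes, with bars for the means, error bars for the SD and 1 point per library. IL1R1 and IL1RAP fall from 18.6 and 9.90 to 6.41 and 3.65, while the other 7 genes are higher in the libraries labelled shKMT5A.

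IL4I1 (chromosome 19, 49889654 to 49929539, minus strand) is an L-amino acid oxidase that degrades aromatic amino acids and dampens T cell responses, and on the log2(value + 1) scale it had the largest log2 fold change of the 18 genes. IL36G exceeded it with a pseudocount of 0.1 (5.77 against 3.60), with edgeR (4.57 against 3.55), with DESeq2 (4.82 against 3.56) and as a ratio of means (24.2 against 12.0), where IL36RN also did (12.4). The counting intervals of these ratios, 6.21 to 202 for IL36G, 4.54 to 47.5 for IL36RN and 8.98 to 16.4 for IL4I1, overlap. The shNC libraries held 12.4, 20.2 and 15.7 normalized counts of IL4I1 and the libraries labelled shKMT5A 189.5, 191 and 199. Averages were 16.1 ± 3.93 and 193 ± 4.86 (SD, n = 3 each), and the log2 fold change was 3.53 ± 0.20 (adjusted p = 2.75e-08, limma). Of its exon bases 13.1% are shared with NUP62 on the same strand, so reads from these bases cannot be told apart.

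Per kilobase of gene length the order of the members changed with the group. In the shNC libraries the order began with IL32, IL6ST, IL15RA, IL1R1 and IL23A, at 882, 123, 24.2, 18.6 and 17.9 normalized counts per kilobase. The ranges of IL1R1 and IL23A overlapped, while IL32, IL6ST and IL15RA each stood clear of the next gene. In the libraries labelled shKMT5A it began with IL32, IL6ST, IL15RA, IL4I1 and IL23A, at 2346, 269, 165, 75.4 and 46.1. There each of the first 7, which end with IL1RAPL1 and IL15 at 34.99 and 22.0, stood clear of the next. From IL7, at 15.7, down to IL21R, at 2.81, the range of each gene overlapped with that of the next one below, so that neighbours in this run of 11 have no firm order, although its ends stand apart (14.5 to 17.9 for IL7 and 2.06 to 3.83 for IL21R). IL1R1 went from rank 4 to rank 14, and IL4I1 from rank 8 to rank 4.

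Of 60 genes that act with interleukins, from processing enzymes and sister cytokines to signal transducers, the table held 13. Each of them was higher (median log2 fold change 2.34), beside 57.4% of the table higher, and 0 were lower (limma, and likewise 0 with edgeR and DESeq2 on reads). The list was chosen with earlier results of these data known, and the table holds only genes selected as changed on these libraries. The counts therefore describe these 13 genes and are no independent support. Among cytokines, CXCL8, also known as interleukin 8, went from 354, 318 and 268 normalized counts under shNC to 13322, 15470 and 10329 (log2 fold change 5.36, adjusted p = 8.90e-11, limma). TSLP, which signals through IL7R and CRLF2, went from 31.8 ± 11.3 to 159 ± 13.2, and CSF2, a growth factor of myeloid cells, from 5.15 ± 2.92 to 129.7 ± 34.2. OSMR, which pairs with gp130 to bind oncostatin M, went from 8.32 ± 6.97 to 28.2 ± 3.04. CASP1, the protease that matures interleukin 1 beta and interleukin 18, went from 10.3 ± 3.84 to 86.7 ± 20.5.

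Among the signal transducers, those downstream of IL-1 receptors included IRAK1 and IRAK2, members of the IRAK family that acts with MYD88. IRAK4 of that family was not in the table and was not analysed here. IRAK1 went from 1996 ± 111 to 4587 ± 179 normalized counts and IRAK2 from 34.3 ± 9.82 to 177 ± 6.93. Of the NF-kB genes, RELB and REL, which encode subunits, were 2.30-fold and 2.50-fold higher. The subunit genes NFKB1, NFKB2 and RELA were not in the table and were not analysed here. NFKBIA, the inhibitor that NF-kB itself induces, was 2.29-fold higher. NFKBIZ, a nuclear co-regulator of interleukin 1 response genes, went from 191 ± 7.89 to 1252 ± 92.1. On the side of JAK and STAT signalling STAT2 was 6.55-fold higher, from 694 ± 36.7 to 4544 ± 311, and SOCS1, a feedback inhibitor of JAK kinases, went from 14.2 ± 1.09 to 48.3 ± 3.90. STAT3, STAT5A, STAT5B, JAK1, JAK2 and TYK2 were not in the table and were not analysed here.

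**Figure D4:**
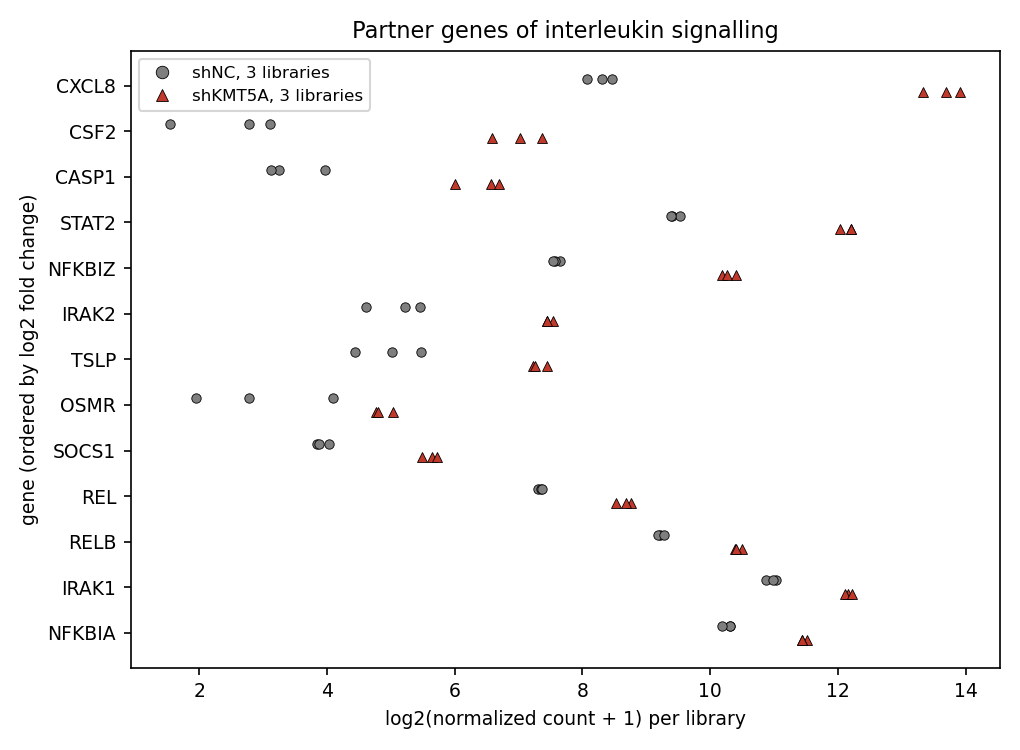
Normalized counts of the 13 partner genes on a log2(value + 1) axis, with 1 circle per shNC library and 1 triangle per library labelled shKMT5A, ordered by log2 fold change. Every triangle lies to the right of every circle of its gene, from NFKBIA (1.19) to CXCL8 (5.36); the groups did not overlap for 99.7% of the table.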

How the data were processed

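Gene read counts were measured by RNA sequencing in 3 shNC and 3 shKMT5A libraries of RKO cells. Per the submitters' processing notes, reads were handled with HISAT2 2.0.5, CASAVA 1.8, DESeq2 1.20.0, fastp and featureCounts 1.5.0-p3 on GRCh38, with no order given. The deposited signal values are normalized read counts: all values of a library (100% within 0.001) are multiples of 1 constant, the value of a single read, by which the authors scaled it. In shKMT5A replicate 3 the value of 1 read, 0.994, is too near 1 for the unit check, although its values were whole multiples too. That library was left out of edgeR and DESeq2, which used the reads of 5 libraries. Read totals, the rule on few counts and the counting intervals used all 6. The log2 fold changes and p-values deposited by the authors are named as theirs wherever given. All 18 members had the position of their identifier in GENCODE 29.

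Values were tested as log2(value + 1) with limma 3.58.1 with trend and robust settings (R 4.3.3, statmod 1.5.0) over all 2885 genes with a mean of at least 1, adjusted by the Benjamini-Hochberg method, at a threshold of 0.05. This scale understates the change of low genes. Columns were assigned to libraries by treatment and number. The members, the list of 60 partners and the markers were chosen with earlier results of these data known. Every member is named; few counts means under 100 normalized counts in sum or at most 3 reads in a group. Counting intervals are exact (Clopper-Pearson on the reads, 95%) and cover counting error only. Levels were compared between genes only per kilobase of the deposited gene length. The tests were checked on simulated counts in which most genes were unchanged, unlike the selected genes of this table. That check therefore does not cover the p-values given here. Alternatives were another pseudocount, other filters and scalings, each library left out, a replicate block, and edgeR 4.0.16 and DESeq2 1.42.0 on the reads of 5 libraries with the authors' scaling. Because the values are not raw counts, no count test is the main one. The row named IFNB1, no member, carries the position of another gene. Some items are not reported here.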

Additional observations from a re-analysis of the deposited data

How the results depend on the processing

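All 285 values of single interleukin genes under the alternatives run kept their direction and stayed past an adjusted p of 0.05, and the 16 higher and 2 lower genes were called in every alternative except the filter at a mean of 10, which removed IL36G, IL36RN and IL21R and left 13 higher. The genes of the table were selected on these very libraries, so this stability is largely built in. The filter on low values removed no gene of the table, so that leaving it out changed nothing. Without the row named IFNB1 or with a log2 fold change of 1 or more in size, both chosen after seeing the data, the members' counts were again 16 and 2. Over the table, between 1645 and 1653 genes were higher and between 1225 and 1228 lower when any single library was left out. TMM, equal totals and equal medians over the table shifted the log2 fold changes of single genes by a median of -0.58, -0.56 and -0.24. With these scalings 1541, 1564 and 1652 genes were higher. Correlations between deviations of same-numbered libraries were -0.0354, -0.0381 and 8.78e-04. The labels do not say whether the numbers pair libraries, and 3 libraries per group are too few to decide it. With the replicate block 16 members were higher and 2 lower, 1655 and 1228 genes over the table, 13 and 0 partners. The log2 fold change of KMT5A was then 1.54. With a pseudocount of 0.1 the log2 fold change of IL36G was 5.77, that of IL36RN 4.28 and that of IL33 3.88 (adjusted p = 0.0364, limma). Depth limits IL1A, IL33, IL36G, IL36RN and IL21R, whose shNC values rest on 2 to 9 reads.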
